A study of Mus musculus with 6 samples.

Results

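Liver RNA-seq was read for 34 biliary and ductular reaction genes, a set compiled by gene symbol from known markers of the bile duct epithelium and of the small ducts that expand in injured liver. Earlier results of these data were known when the set and the other gene lists used below were chosen. The shares of all genes set beside them are therefore descriptions and not tests. The set was split into 17 genes of epithelial structure, 5 of ion transport and secretion, 8 of progenitor-like cells and 4 others. Each symbol matched 1 Ensembl gene among the 49671 genes counted. There were 3 SHMT2fl/fl and 3 SHMT2HKO liver samples, from male C57BL/6J mice. Both groups carried floxed Shmt2 alleles, and the SHMT2HKO mice also carried a Cre recombinase under the albumin promoter. The study used this Cre to target hepatocytes, and whether Shmt2 was also deleted in duct cells was not examined here. No livers with Cre alone and no chow-fed livers were analysed here, so values are not given relative to a healthy liver. All mice received the AMLN diet, a high-fat food with added fructose and cholesterol that gives rodents steatohepatitis. Feeding began at 4 weeks of age, lasted 18 weeks and ended at 22 weeks. The labels call the groups WT and KO, and the study equates wild-type with floxed controls. They number 3 samples in each group without stating that each came from a separate mouse, so p-values measure the spread between these samples. A numbered liver below means the sample with that number.

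Bile ducts are lined by cholangiocytes, epithelial cells joined by tight junctions and bearing keratins, a primary cilium and apical channels that add bicarbonate and fluid to bile under the hormone secretin. In chronic liver injury, steatohepatitis included, strands of such cells with some features of progenitors spread from the portal tracts, which is called the ductular reaction. SOX9, a transcription factor of duct development, marks these cells, and hepatocytes can also switch on some of the genes. Keratins 8 and 18 differ from the others in that hepatocytes make them too. In whole liver RNA, fewer duct cells and less duct RNA per cell cannot be told apart.

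Counts on genes ranged from 23090800 to 34089700 per library, and 3 counts, taken as the detection floor, corresponded to 0.0734 to 0.152 CPM, the count of a gene relative to the size of its library. Library sizes were scaled by TMM, which assumes that most genes do not differ, and each gene was tested between genotypes by edgeR's quasi-likelihood test, two-sided, with Benjamini-Hochberg adjustment over the 16089 genes that passed a filter on low counts. A gene is called below when its adjusted p is under 0.05. Of all genes tested 4663 (29%) were called, 2651 (16.5%) lower and 2012 (12.5%) higher in SHMT2HKO livers, and, with no model, 25% of genes had every SHMT2HKO value below every SHMT2fl/fl value and 21.9% the opposite. Lower calls made up 56.9% of calls with TMM, 90.1% with library size alone and 96.3% with the ERCC spike-in RNAs as the scale, since these scales moved the median log2 fold change of all genes by -0.42 and -0.72. Directions below are relative to the median gene unless another scale is named. The first principal component of the libraries (64.8% of variance) separated the genotypes, and the second (19.4%) set SHMT2HKO liver 1 apart from livers 2 and 3.

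The targeted gene followed the labels. Shmt2, which encodes the mitochondrial serine hydroxymethyltransferase, had 94.6, 109 and 93.9 CPM in SHMT2fl/fl livers 1, 2 and 3 and 24.9, 28.3 and 19.3 CPM in SHMT2HKO livers 1, 2 and 3. All livers labelled as knockouts were below all controls. The log2 fold change, given here and below as SHMT2HKO relative to SHMT2fl/fl with its standard error, was -2.04 ± 0.16 (adjusted p = 0.000639), and an exact permutation test on the 6 values gave p = 0.1, two-sided, the smallest that 3 against 3 allows.

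Most of the duct genes were far lower in SHMT2HKO livers. Of the 33 members tested, 28 were called lower, 2 were called higher (Onecut1 and Ambp) and 3 were not called (Krt8, Krt18 and Slc4a4), beside 16.5% of all genes called lower and 12.5% called higher. The looser cutoff of the study, p under 0.05 with adjusted p under 0.25, also counted 28 lower and 2 higher, beside 21.8% and 19.5% of all genes. In 30 members all SHMT2HKO values lay below all SHMT2fl/fl values (25% of all genes), in 2 they lay above (21.9% of all genes), and Slc4a4 overlapped. The median log2 fold change of the members was -2.59, against 0.03 over all genes, and single members ran from -4.02 (Cldn4) to 2.42 (Onecut1). By class the medians were -2.73 for epithelial structure (15 of 17 lower), -2.48 for ion transport (4 of 5 lower) and -2.52 for progenitor-like genes (7 of 8 lower, 1 higher). The remaining member, Dmbt1, did not pass the filter and is described last.

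**Figure D1:**
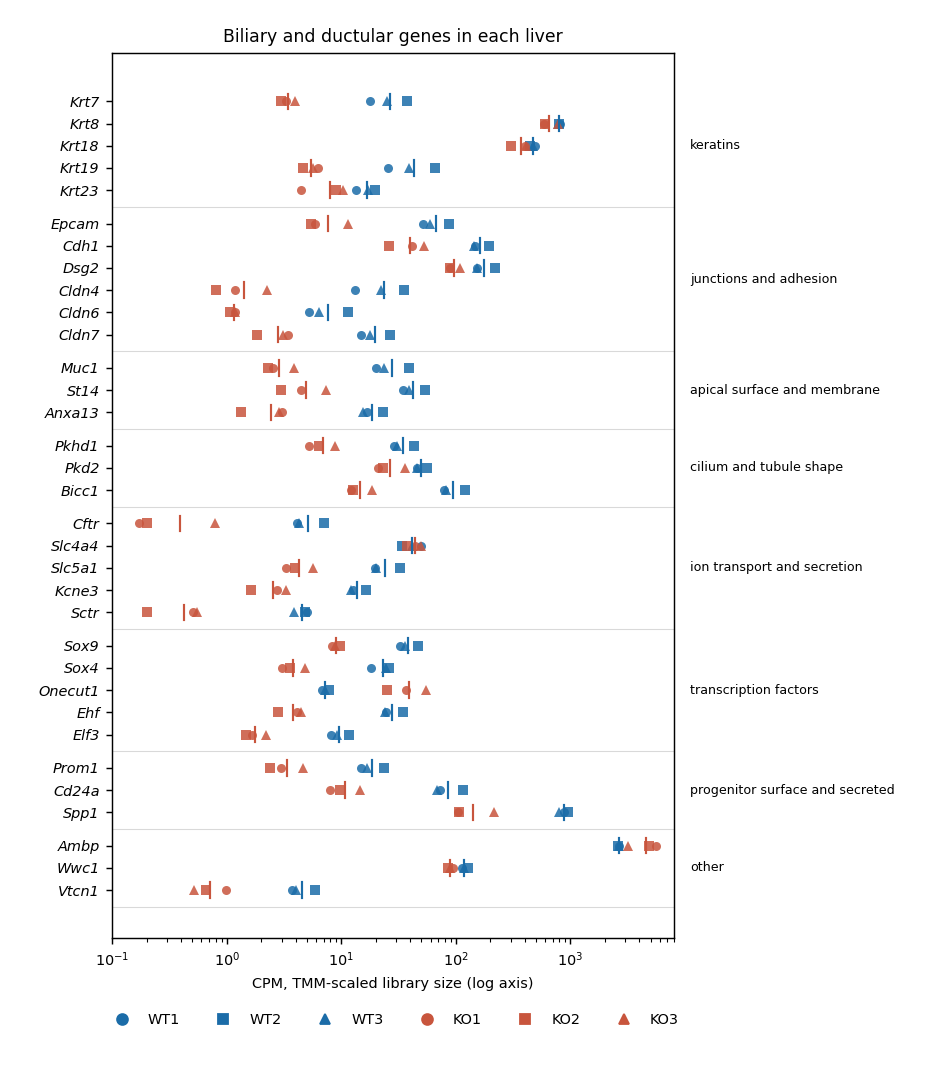
Level of each of the 33 tested duct genes in every liver, in CPM on a log axis, grouped by role, with SHMT2fl/fl livers in blue, SHMT2HKO livers in red, the marker shape giving the replicate number and a vertical line at each group mean. The groups do not overlap for any gene but Slc4a4, though for Krt8 (784 CPM in the lowest control, 782 CPM in the highest knockout) and Krt18 they nearly touch. Onecut1 and Ambp are the genes with the SHMT2HKO livers on the higher side.

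The sequences just before the transcription start are printed for 4 members, chosen because they hold the largest falls among the barrier and surface genes (Cldn4, Muc1, Epcam) or are the transcription factor that was higher (Onecut1). Each is the 250 bases before a RefSeq start, on GRCm38.p6, read 5′ to 3′ on the strand of the gene, and none overlaps an annotated exon. Capitals mark the letters CACCTG or their reverse complement CAGGTG, a form of E-box known to be bound by the SNAIL and ZEB repressors among others.
Cldn4, chr5:134946935-134947184, minus strand: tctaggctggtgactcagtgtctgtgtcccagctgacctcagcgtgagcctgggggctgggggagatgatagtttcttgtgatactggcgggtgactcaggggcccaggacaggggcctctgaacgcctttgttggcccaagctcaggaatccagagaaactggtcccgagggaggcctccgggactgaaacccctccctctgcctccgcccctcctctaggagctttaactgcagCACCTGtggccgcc
Muc1, chr3:89228806-89229055, plus strand: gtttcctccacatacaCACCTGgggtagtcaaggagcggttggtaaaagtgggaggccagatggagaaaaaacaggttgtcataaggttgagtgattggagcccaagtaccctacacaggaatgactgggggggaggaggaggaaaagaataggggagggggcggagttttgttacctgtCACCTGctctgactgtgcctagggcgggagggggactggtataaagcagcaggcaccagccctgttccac
Epcam, chr17:87635729-87635978, plus strand: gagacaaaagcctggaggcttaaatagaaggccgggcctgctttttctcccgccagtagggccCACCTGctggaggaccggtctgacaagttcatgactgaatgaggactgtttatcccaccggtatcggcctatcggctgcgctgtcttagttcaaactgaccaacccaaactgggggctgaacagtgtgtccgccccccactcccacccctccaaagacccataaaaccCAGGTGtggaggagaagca
Onecut1, chr9:74861671-74861920, plus strand: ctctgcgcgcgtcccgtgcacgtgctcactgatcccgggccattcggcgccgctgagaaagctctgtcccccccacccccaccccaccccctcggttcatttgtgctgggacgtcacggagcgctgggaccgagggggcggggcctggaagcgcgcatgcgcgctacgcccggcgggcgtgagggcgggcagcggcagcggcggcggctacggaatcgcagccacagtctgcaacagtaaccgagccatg

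Among the 23 members with such a window, 15 (65.2%) held CACCTG on either strand, against 19.4% of all genes with a window. The 15 include Krt8, Krt18 and Slc4a4, which were not called, and a gene with several starts was counted when any window held the letters. Every CACCTG is also a match to the general E-box CANNTG, which 82.6% of the members and 69.3% of all genes held. For the TEAD letters CATTCC the shares were 21.7% and 14.4%, for the ONECUT letters ATCAAT they were 4.35% and 7.72%, and for the AP-1 letters TGANTCA 3 of 23 members and 7.82% of all genes held them. These matches describe letters in the windows and were not tested, and 16 motifs were searched.

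Keratins form the intermediate filaments of epithelia. Krt7 and Krt19, the keratins that separate duct cells from hepatocytes, fell by the same factor, while Krt8 and Krt18, which hepatocytes share, were not called. Krt19 (GRCm38, chromosome 11, 100140810 to 100148665, minus strand) had 25.6, 65.1 and 38.8 CPM in SHMT2fl/fl livers and 6.20, 4.61 and 5.63 CPM in SHMT2HKO livers, in the order of replicates 1, 2 and 3 that is used throughout. Its lowest control was 4.13 times its highest knockout. The log2 fold change was -2.97 ± 0.34 (adjusted p = 0.00137), a 7.84-fold lower level. For Krt7 (chromosome 15, 101411043 to 101430313, plus strand) the values were 17.7, 37.7 and 25.03 CPM against 3.27, 2.99 and 3.94 CPM, again a 7.84-fold difference (log2 -2.97 ± 0.29, adjusted p = 0.000912). In both genes SHMT2fl/fl liver 2 was the highest, and the SHMT2HKO livers lay close together. Krt23, a keratin induced in ductular reactions and in stressed hepatocytes, had 13.3, 19.6 and 17.0 CPM against 4.46, 8.96 and 10.2 CPM. The groups did not overlap and Krt23 was called lower (log2 -1.08 ± 0.30, adjusted p = 0.0286), but the call was lost without SHMT2fl/fl liver 2 (adjusted p = 0.0979), SHMT2fl/fl liver 3 (0.0877) or SHMT2HKO liver 2 (0.0630).

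The shared keratins gave the contrast. Krt8 had 803, 791 and 784 CPM in SHMT2fl/fl livers and 585, 597 and 782 CPM in SHMT2HKO livers, so that SHMT2HKO liver 3 all but reached the controls. Its log2 fold change was -0.28 (95% confidence interval -0.66 to 0.11, adjusted p = 0.251). Krt18, its partner in the filament, had 492, 440.1 and 469 CPM against 402, 302 and 412 CPM, with a log2 fold change of -0.33 (interval -0.71 to 0.05, adjusted p = 0.172). Both intervals lie well above the changes of Krt7 and Krt19. Krt8 was called lower without SHMT2HKO liver 3 (log2 -0.45, adjusted p = 0.0375), and both were called lower with library size alone as the scale.

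All 6 junction and adhesion genes were called lower, with a median log2 fold change of -2.77. Cldn4, a sealing claudin of tight junctions (chromosome 5, 134945119 to 134946934, minus strand), showed the largest fall of any member. It had 13.1, 35.1 and 22.3 CPM in SHMT2fl/fl livers and 1.19, 0.810 and 2.24 CPM in SHMT2HKO livers, a 16.2-fold difference (log2 -4.02 ± 0.47, adjusted p = 0.00149). The spread within each group was wide, since SHMT2fl/fl liver 2 and SHMT2HKO liver 3 were the highest of their groups, yet the groups were far apart. Cldn7 (19.6 ± 5.998 CPM against 2.78 ± 0.837, mean ± SD, n = 3 each) and Cldn6 (7.67 ± 3.34 against 1.14 ± 0.0700) fell 7.01-fold and 6.64-fold. Cldn6 is a claudin of embryonic epithelia, and its 3 SHMT2HKO values, 1.19, 1.06 and 1.18 CPM, were nearly equal.

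Epcam, the epithelial cell adhesion molecule used to sort duct cells (chromosome 17, 87635979 to 87651129, plus strand), had 51.7, 87.5 and 59.7 CPM in SHMT2fl/fl livers and 5.86, 5.42 and 11.5 CPM in SHMT2HKO livers. The lowest control exceeded the highest knockout by a wide margin, and the level was 8.67-fold lower (log2 -3.12 ± 0.33, adjusted p = 0.00123). Cdh1, encoding E-cadherin of adherens junctions, which periportal hepatocytes also make, had 146, 194 and 144 CPM against 41.0, 26.2 and 52.3 CPM. This was a 4.05-fold fall (log2 -2.02 ± 0.25, adjusted p = 0.0017). Dsg2, a desmosomal cadherin that hepatocytes carry as well, showed the least fall among the junction genes, from 154, 219.5 and 152 CPM to 88.8, 89.5 and 108 CPM (log2 -0.88 ± 0.18, adjusted p = 0.00866). The groups did not overlap in any of these genes.

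Genes of the apical surface and membrane were lower by similar amounts. Muc1, a transmembrane mucin, had 20.01, 38.9 and 23.8 CPM in SHMT2fl/fl livers and 2.55, 2.28 and 3.82 CPM in SHMT2HKO livers (9.48-fold lower, log2 -3.24 ± 0.31, adjusted p = 0.000912). St14, the membrane serine protease matriptase, had 34.3, 53.9 and 39.2 CPM against 4.46, 2.99 and 7.36 CPM (8.52-fold lower, adjusted p = 0.00112). Anxa13, an annexin of polarised epithelia, fell 7.56-fold, from 18.5 ± 4.07 to 2.42 ± 0.956 CPM (adjusted p = 0.00111). In each of these 3 genes SHMT2fl/fl liver 2 was the highest liver and SHMT2HKO liver 2 the lowest.

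The genes of the cilium and of tubule shape did not fall equally. Pkhd1, which encodes fibrocystin, the ciliary protein mutated in recessive polycystic kidney and liver disease (chromosome 1, 20057779 to 20618064, minus strand), had 28.9, 43.4 and 30.5 CPM in SHMT2fl/fl livers and 5.26, 6.43 and 8.86 CPM in SHMT2HKO livers (4.98-fold lower, log2 -2.32 ± 0.24, adjusted p = 0.00103). Bicc1, an RNA-binding protein whose loss gives cystic ducts and tubules, had 78.0, 121 and 81.2 CPM against 12.2, 12.6 and 18.6 CPM (6.43-fold lower, adjusted p = 0.000816). Pkd2, the widely expressed cation channel polycystin-2, had 45.5, 56.1 and 46.1 CPM against 21.0, 22.9 and 35.9 CPM. Its fall was 1.85-fold (log2 -0.89 ± 0.21, adjusted p = 0.0162), and the call was lost without SHMT2fl/fl liver 2 (adjusted p = 0.0627) or SHMT2HKO liver 2 (0.0641).

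**Figure D2:**
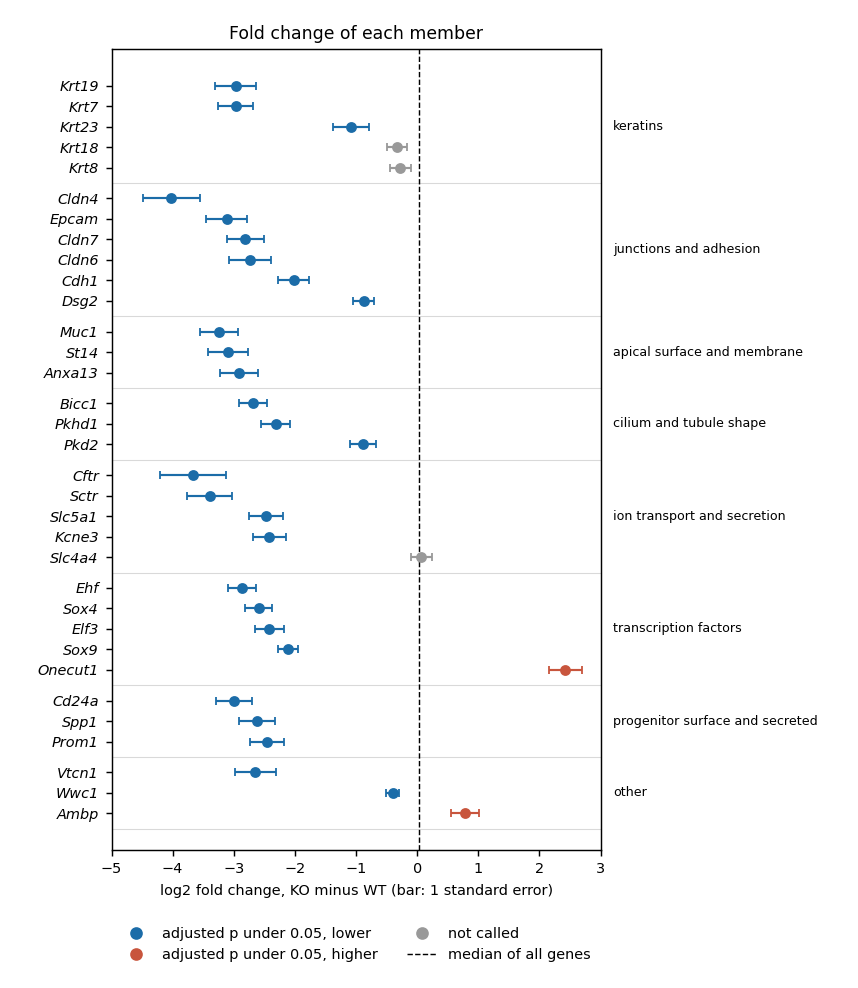
Log2 fold change of each tested duct gene, SHMT2HKO relative to SHMT2fl/fl, with bars of 1 standard error, n = 3 samples per group, and a dashed line at the median of all genes tested (0.03). Cldn4 is lowest at -4.02, Krt8, Krt18 and Slc4a4 lie near the line, and Onecut1 stands alone at 2.42.

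Among the genes of ion transport and secretion, 4 of 5 were called lower. Cftr, the apical chloride channel that drives bicarbonate output from duct cells (chromosome 6, 18170687 to 18322768, plus strand), had 4.06, 7.04 and 4.23 CPM in SHMT2fl/fl livers and 0.170, 0.203 and 0.787 CPM in SHMT2HKO livers. The SHMT2HKO values rest on 4, 4 and 20 counts, near the floor in livers 1 and 2, so the 12.7-fold difference (log2 -3.67 ± 0.55, adjusted p = 0.00291) carries the widest standard error of the members. Sctr, the secretin receptor, which in liver is restricted to duct cells, had 4.97, 4.85 and 3.86 CPM against 0.509, 0.203 and 0.551 CPM. It fell 10.5-fold (log2 -3.40 ± 0.36, adjusted p = 0.00111) on 12, 4 and 14 counts in the SHMT2HKO livers. Unlike most members, Sctr was not raised in SHMT2fl/fl liver 2.

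Kcne3, a subunit that modifies epithelial potassium channels, had 12.7, 16.3 and 12.1 CPM in SHMT2fl/fl livers and 2.72, 1.62 and 3.27 CPM in SHMT2HKO livers (5.35-fold lower, adjusted p = 0.00123). Slc5a1, the sodium-glucose cotransporter SGLT1 that takes glucose back from bile, had 19.6, 32.4 and 20.1 CPM against 3.27, 3.95 and 5.67 CPM (5.57-fold lower, adjusted p = 0.00125). Slc4a4, a sodium bicarbonate cotransporter that hepatocytes also express, had 49.8, 33.5 and 41.3 CPM against 44.0, 37.3 and 49.3 CPM. It was the only member whose groups overlapped, and its log2 fold change was 0.07 (95% confidence interval -0.32 to 0.46, adjusted p = 0.792), with a sign that turned under 5 of the alternatives given in the closing section. The interval lies above the falls of the other 4 transport genes.

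Of the 5 transcription factors, 4 were lower and 1 was higher. Sox9, the factor that marks duct cells and ductal plate progenitors (chromosome 11, 112782224 to 112787760, plus strand), had 32.6, 46.3 and 36.1 CPM in SHMT2fl/fl livers and 8.23, 9.67 and 8.78 CPM in SHMT2HKO livers. The SHMT2HKO livers were nearly equal and lay far below the controls (4.31-fold lower, log2 -2.11 ± 0.16, adjusted p = 0.000639). Sox4, which acts with Sox9 in bile duct development, had 18.2, 26.1 and 24.4 CPM against 3.01, 3.54 and 4.802 CPM (6.02-fold lower, log2 -2.59 ± 0.22, adjusted p = 0.000781). A long noncoding gene on the opposite strand covers 54.6% of the Sox4 exons and had 0 counts in every library, and whether counting used the strand is not given in the sources used here, so reads of the pair cannot be told apart. Ehf and Elf3 are ETS factors of simple epithelia. Ehf fell 7.30-fold, from 27.7 ± 5.67 to 3.77 ± 0.872 CPM (adjusted p = 0.000639), and Elf3 fell 5.34-fold, from 9.56 ± 1.80 to 1.78 ± 0.382 CPM (adjusted p = 0.000943). A gene on the opposite strand overlaps 7.31% of the Elf3 exon length and had up to 104 counts in a library. Elf3 itself had 39, 29 and 56 counts in SHMT2HKO livers.

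Onecut1 went the other way. It encodes HNF6, a factor of both hepatocytes and developing ducts (chromosome 9, 74861921 to 74891781, plus strand), and had 6.83, 7.79 and 7.15 CPM in SHMT2fl/fl livers and 36.8, 24.8 and 54.7 CPM in SHMT2HKO livers. The controls were tight, the SHMT2HKO livers differed among themselves by more than the controls did, and every one was above every control. The level was 5.35-fold higher (log2 2.42 ± 0.27, adjusted p = 0.00127), and the call was kept in each alternative run, the spike-in scale included. A long noncoding gene on the same strand overlaps 52.8% of the Onecut1 exon length, and that gene had at most 2 counts in a library. How reads over both genes were counted is not given, so reads of this pair cannot be told apart either.

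The 3 progenitor surface and secreted genes were called lower. Spp1, which encodes osteopontin and is made by duct cells and also by macrophages (chromosome 5, 104435118 to 104441050, plus strand), was the most abundant of the lowered genes. It had 876, 944 and 792 CPM in SHMT2fl/fl livers and 104, 105 and 215 CPM in SHMT2HKO livers (6.15-fold lower, log2 -2.62 ± 0.30, adjusted p = 0.00134). SHMT2HKO liver 3 was at 2.06 times the lowest SHMT2HKO liver. Cd24a, a surface glycoprotein of progenitors that many leukocytes carry too, had 73.2, 116 and 68.3 CPM against 7.98, 9.67 and 14.6 CPM (7.96-fold lower, adjusted p = 0.000943). Prom1, the pentaspan membrane protein CD133, had 14.9, 23.8 and 16.7 CPM against 2.97, 2.38 and 4.64 CPM (5.49-fold lower, adjusted p = 0.00136).

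The last 4 members were mixed. Vtcn1, the immune checkpoint ligand B7-H4 found on some duct epithelia, had 3.72, 5.83 and 4.02 CPM in SHMT2fl/fl livers and 0.976, 0.658 and 0.512 CPM in SHMT2HKO livers (6.28-fold lower, log2 -2.65 ± 0.34, adjusted p = 0.00172). Wwc1, the scaffold protein KIBRA of the Hippo pathway, had 112, 127 and 116 CPM against 93.9, 85.8 and 89.0 CPM, a 1.32-fold fall (log2 -0.40 ± 0.11, adjusted p = 0.0294). Ambp, a plasma protein precursor that hepatocytes secrete, had 2667, 2624 and 2628 CPM against 5546, 4854 and 3202 CPM. It was called 1.72-fold higher (log2 0.78 ± 0.23, adjusted p = 0.0362), with SHMT2HKO liver 3 nearest the controls. The Wwc1 and Ambp calls were each lost without any one of SHMT2fl/fl livers 1, 2 and 3 (adjusted p of 0.0632, 0.121 and 0.0966 for Wwc1 and of 0.111, 0.120 and 0.122 for Ambp) or without SHMT2HKO liver 2 (0.0905 and 0.0965), and Ambp also without SHMT2HKO liver 1 (0.0667). Dmbt1, a secreted scavenger protein raised in ductular reactions, had 4, 3 and 221 counts in SHMT2fl/fl livers and 0 in each SHMT2HKO liver. Nearly all of its signal came from SHMT2fl/fl liver 3 (5.77 CPM), which was not a liver with raised values of the other members, and 0 counts allow up to 0.118 to 0.152 CPM.

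Divided by exon length, the levels of the members in SHMT2fl/fl livers ran from 1874 CPM per kb (Ambp) through 528 (Spp1), 405 (Krt8) and 325 (Krt18) to 35.3 (Cdh1), 33.3 (Cd24a), 30.2 (Epcam) and 23.3 (Krt19), and down to 0.658 for Cftr and 0.282 for Dmbt1. In SHMT2HKO livers Epcam stood at 3.46 and Krt19 at 2.95 CPM per kb, while Krt8 stood at 334. The members that were not called lower include 3 of the 4 most abundant per length, and the duct keratins were far rarer than the shared ones in both genotypes.

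Livers of the same genotype also ranked alike over the members. SHMT2fl/fl liver 2 was the highest control for 28 of the 33 tested members, liver 1 for 5 and liver 3 for 0. Among SHMT2HKO livers, liver 3 was the highest for 25, liver 1 for 7 and liver 2 for 1. The median over members of the log2 ratio to the SHMT2fl/fl mean was -0.25, 0.32 and -0.14 in SHMT2fl/fl livers 1, 2 and 3 and -2.59, -2.74 and -2.11 in SHMT2HKO livers 1, 2 and 3. The sum of 7 duct markers (Epcam, Krt7, Krt19, Sox9, Cftr, Pkhd1 and Sctr) was 166, 292 and 198 CPM against 29.5, 29.5 and 40.1 CPM. Differences within a genotype were small beside the difference between genotypes, and leaving out any 1 liver left between 25 and 29 members called lower.

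A second list of 20 duct epithelial genes that are no members was read beside them. This choice too was made with earlier results of these data known. Of the 20 genes, 13 were called lower, 1 higher and 6 not, with a median log2 fold change of -1.78. Beside them, 16.5% of all genes were called lower and 12.5% higher. Among the named genes of the list, Tspan8, a tetraspanin of epithelia, fell from 48.7 ± 10.4 to 4.48 ± 2.02 CPM (log2 -3.43, adjusted p = 0.000871). Gabrp, an epithelial GABA receptor subunit, was at a log2 fold change of -5.02 and the matrix protease gene Mmp7 at -4.81, both called lower, with Gabrp on 6, 1 and 4 counts in SHMT2HKO livers. Slc10a2, the bile acid carrier of the duct membrane and gut, was the one higher (log2 0.93, adjusted p = 0.00352). Cldn3, which hepatocytes also make (log2 -0.26, adjusted p = 0.164), and Aqp1, a water channel of duct and endothelial cells (log2 -0.03, adjusted p = 0.902), were not called, nor were Onecut2, Slc4a2, Gpbar1 and Lamb3.

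Of 16 genes that encode signals or receptors of the duct niche, 8 were called lower, 1 higher and 7 not (median log2 fold change -0.75). Over all genes tested the shares were 16.5% lower and 12.5% higher. Fgf7, a growth factor that portal fibroblasts make for duct cells, fell from 1.34 ± 0.312 to 0.161 ± 0.0663 CPM on 2, 4 and 5 counts in SHMT2HKO livers (log2 -3.03, adjusted p = 0.00305). The cytokine genes Tgfb2 (log2 -2.81, adjusted p = 0.00158) and Lif (log2 -2.39, adjusted p = 0.0223, on 3, 2 and 17 counts in SHMT2HKO livers) and Osmr, the oncostatin M receptor gene (log2 -1.28, adjusted p = 0.012), fell as well. The Notch ligand gene Jag1, which patterns bile ducts, fell (log2 -0.82, adjusted p = 0.0118), as did the target gene Hey1 (log2 -0.78, adjusted p = 0.0283), while the target gene Hes1 was not called (log2 -0.63, adjusted p = 0.154). The receptor gene Notch2 (log2 -0.40, adjusted p = 0.0663) and the Hippo effector genes Yap1 (log2 0.24, adjusted p = 0.165) and Wwtr1 (log2 0.12, adjusted p = 0.502) were not called. Also in the list, Ccn1 was called lower (log2 -0.91, adjusted p = 0.0181) and Ccn2 was not called (log2 -1.31, adjusted p = 0.121). The single higher gene was Met, the receptor of hepatocyte growth factor (log2 0.65, adjusted p = 0.00755).

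Markers of other cells moved with genotype too, and their part in the duct gene values was not tested. The shares over all genes, 16.5% called lower and 12.5% called higher, stand beside the counts that follow. For stellate cells and myofibroblasts 5 of 8 markers were lower, and their summed level was 1446 to 1500.3 CPM in SHMT2fl/fl livers and 329 to 861 CPM in SHMT2HKO livers, highest in SHMT2HKO liver 3. For lipid-associated macrophages, which also express Spp1, 5 of 8 were lower and 1 higher, with sums of 466 to 567 against 193 to 299.6 CPM. Of 10 hepatocyte markers 0 were lower and 3 higher (58859 to 72057 against 73704.5 to 106636 CPM summed), Cyp2e1 by 1.82 on the log2 scale. Most of that sum was Alb, which was not called (log2 0.56, adjusted p = 0.132) and whose groups overlapped. Tat (log2 -0.66, adjusted p = 0.0718) and Hpx (log2 -0.06, adjusted p = 0.868) leaned the other way and were not called. For B cells 1 of 6 was lower, a share close to the 16.5% of all genes (sums of 6.05 to 7.41 against 2.63 to 4.91 CPM). The mesothelial list had 0 of 5 tested markers called (none at an unadjusted p under 0.05) and sums that overlapped, 9.55 to 25.6 against 7.56 to 15.2 CPM, as had the neutrophil list with 0 of 3 called (none at an unadjusted p under 0.05), at 1.39 to 2.57 against 1.47 to 2.91 CPM, with Ly6g and Mpo at 3 counts or fewer throughout. Of 10 pancreas and gut markers 6 (Cela3b, Pnlip, Cpa1, Ctrb1, Prss2 and Cdx2) were at 3 counts or fewer in every library, while Fabp2 and Lgals4 were higher in SHMT2HKO livers, and the sums were 114 to 116 against 220.1 to 273 CPM. SHMT2fl/fl liver 2, the highest control for most members, was not the highest control in the stellate, macrophage or hepatocyte sums. It was the highest control in the sum of the other duct genes (655, 808 and 743 CPM in SHMT2fl/fl livers against 538, 534 and 529 CPM). The same held for the sum of the niche genes (378, 451 and 399 CPM against 309, 315 and 396 CPM). SHMT2HKO liver 3, the highest knockout for 25 members, was also the highest knockout in the stellate and macrophage sums and the lowest in the hepatocyte sum.

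**Figure D3:**
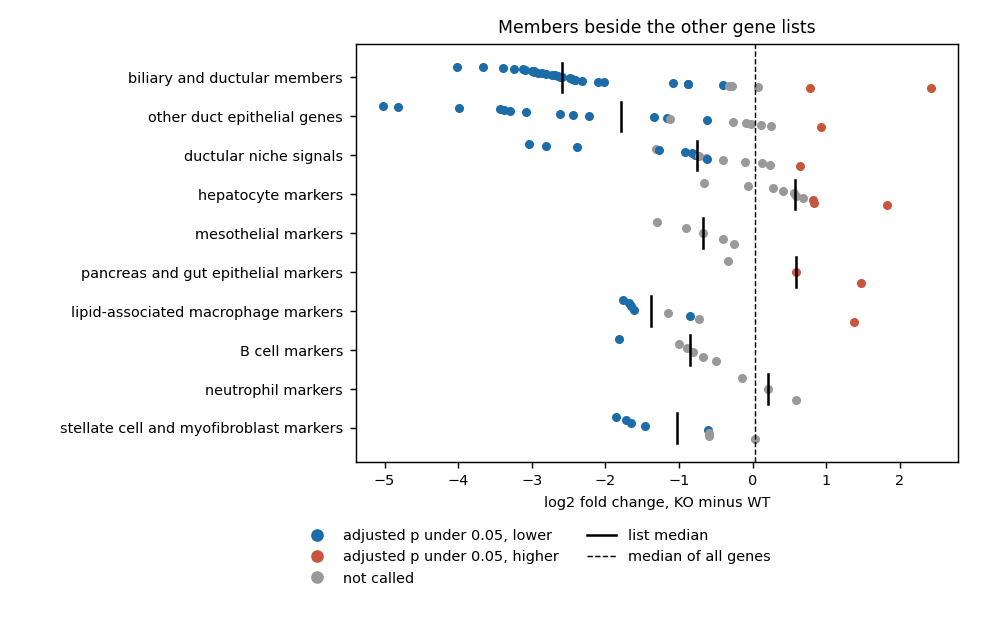
Log2 fold change (SHMT2HKO relative to SHMT2fl/fl) of each tested gene, 1 point per gene, for the duct members and for 9 further lists, with a black line at the median of each list. The members' median is -2.59, the other duct genes' -1.78, the stellate cell and myofibroblast markers' -1.03 and the hepatocyte markers' 0.57.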

How the data were processed

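Values came from 1 table of read counts per Ensembl gene in 6 liver samples, 3 per genotype. The authors trimmed the reads with Trimmomatic 0.36, ran STAR 2.5.2b against GRCm38 plus the ERCC sequences and counted unique hits, and the submitters' processing notes name featureCounts of Subread 1.5.2. The authors deposited these counts as they were, not normalized. Neither the strand setting nor the handling of overlapping genes is given in the sources used here. The 92 ERCC rows entered neither library sizes nor tests. Symbols, exon lengths and coordinates were taken from the GENCODE vM21 annotation, promoter windows from RefSeq (GRCm38.p6), and windows of 11 members were not used here.

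edgeR 4.0.16 (R 4.3.3) was used to remove genes of low count (filterByExpr), to set TMM scales and to run the quasi-likelihood test with robust dispersions and no covariate. Adjusted p-values are Benjamini-Hochberg over the 16089 genes tested or, for an alternative, over the genes tested in it. Values are CPM on TMM-scaled library sizes, given as mean ± SD over 3 samples, and a fold is 2 to the power of the fitted log2 fold change. Limits from 3 counts cover counting error only. The code was tested on simulated data. Genes named are Shmt2, all 34 members and, from each list, at most 4 called genes without overlap between genotypes and of largest change. Other genes of the lists were named after their values were seen. Some genes that this rule names are not reported here. The members and lists were chosen with earlier results of these data known. Alternatives were DESeq2 1.42.0, limma-voom of limma 3.58.1 (the test of the study), the cutoff of the study (p under 0.05 and adjusted p under 0.25), library size without TMM, upper quartile and ERCC scaling, no filter, at least 10 counts in every sample, no robust estimation, a replicate block and each sample left out in turn.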

Additional observations from a re-analysis of the deposited data

How the results depend on the processing

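Of the 30 called members, 26 kept their call in every alternative run, and Krt23, Pkd2, Ambp and Wwc1 lost it in at least 1. Between 25 and 30 members were called lower over all alternatives, 25 to 29 when 1 sample was left out. The count called higher fell from 2 to 1 with library size alone, upper quartile scaling, ERCC scaling and the replicate block, in each case through Ambp, and was 1 to 2 when 1 sample was left out. The median of the members was -2.99 with library size alone and -3.11 with ERCC scaling, which move all genes. Slc4a4 changed sign to -0.35 with library size alone, -0.0217 with upper quartile, -0.61 with ERCC scaling, -0.0645 without SHMT2fl/fl liver 2 and -0.06 without SHMT2HKO liver 3, and ran from -0.06 to 0.22 over the samples left out. Ambp changed sign with ERCC scaling (-0.0701, adjusted p = 0.896). The genes called over all genes numbered 2866 with ERCC scaling and 2426 to 5597 when 1 sample was left out (2699, 2547 and 2426 without SHMT2fl/fl liver 1, 2 or 3 and 4828, 3023 and 5597 without SHMT2HKO liver 1, 2 or 3), against 4663. The cause was not tested. Shmt2 kept its call throughout, from -2.82 to -1.92. Same-numbered samples of the 2 genotypes did not deviate together (correlations of deviations from the group means -0.05, 0.01 and -0.08). SHMT2fl/fl liver 2 correlated best with its own number, liver 1 with SHMT2HKO liver 3 (0.08) and liver 3 with SHMT2HKO liver 1 (0.05). The labels name no pairing, and with 3 samples per group these correlations cannot decide whether there was one. With the replicate block 3584 genes, 27 members lower and 1 higher were called, and Shmt2 was at -2.05. A minimum of 10 counts in every sample removed Cftr and Sctr, and Dmbt1 could be fitted only without a filter. Of the duct and niche genes given with values, low counts limit Cftr, Sctr, Dmbt1, Gabrp, Fgf7 and Lif, each with fewer than 10 counts in at least 1 SHMT2HKO sample.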
